A study of Mus musculus with 2 samples.

Results

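The MHC class I pathway was followed through 9 genes in mouse embryonic stem cells. They encode the light chain of class I molecules (B2m), the classical heavy chains (H2-K1 and H2-D1), the peptide transporter (Tap1 and Tap2), tapasin (Tapbp) and the inducible proteasome subunits (Psmb8, Psmb9 and Psmb10). The genes were chosen by their role in the pathway with their differences between the clones already known, so every value below is a description. All probe sets that the platform annotation assigns to 1 of these genes alone were used. There were 25 of them among 20380 single-gene probe sets, and the 9 genes stood among 12393 genes with such a probe set. A further 3 probe sets name H2-K1 or H2-D1 together with another gene and were kept apart.

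The study set E14tg2a mouse embryonic stem cells with a stably transfected plasmid for a short hairpin RNA against Dab2 (construct shDAB2-285, clone 4) beside cells with the vector control plasmid (clone 9). Dab2 encodes Disabled-2, an endocytic adaptor protein. Both clones grew without further treatment in GMEM with 10% fetal bovine serum, L-glutamine, antibiotics and 1000 U/ml of leukaemia inhibitory factor, the cytokine that holds these cells undifferentiated. Each group is 1 clone on 1 Affymetrix mouse 430A array, so no test across samples exists, and hairpin, clone and culture cannot be told apart.

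Class I molecules display peptides from inside the cell to cytotoxic T cells, and natural killer cells respond to their loss. The proteasome makes the peptides, the TAP transporter carries them into the endoplasmic reticulum, and tapasin holds the transporter next to a waiting heavy chain. A heavy chain needs B2m to fold and to reach the surface. Interferon induces nearly the whole pathway in most tissues, and mouse embryonic stem cells are known for very low surface class I. The heavy chain and B2m promoters are known to share an upstream module bound by RFX, CREB-type and NF-Y factors. Sites for NF-kappaB and for interferon regulatory factors (IRF) are known in the heavy chain promoters, which does not mean that B2m lacks them.

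Letters of the CREB type and of the CCAAT box stand in the promoters of B2m, H2-K1 and H2-D1, the 3 genes with the lowest values in the shDAB2 clone relative to the vector clone. The promoters of Tap1 and Psmb9, not printed here, hold both kinds of letters too. Each line gives 120 bases of RefSeq sequence (GRCm38.p6), 5′ to 3′ on the gene's strand and placed on the same ATTGG. They lie at chr2:122147529-122147648 on the plus strand for B2m, chr17:34000349-34000468 on the minus strand for H2-K1 and chr17:35262913-35263032 on the plus strand for H2-D1, all upstream of the annotated start. Capitals mark, from left to right, the NF-kappaB-type letters GGGNNTTCC (heavy chains only) and the IRF-type letters GAANNGAAA (in B2m their shorter core AANNGAAA). Then follow the CREB-type letters TGACG and ATTGG, the reverse of the CCAAT box. B2m also reads GAAACTGAAA around its core and GGGAAAGTCCC after it, related letters that the longer patterns do not match.
B2m: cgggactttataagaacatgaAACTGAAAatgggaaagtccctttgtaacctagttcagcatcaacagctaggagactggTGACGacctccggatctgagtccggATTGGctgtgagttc
H2-K1: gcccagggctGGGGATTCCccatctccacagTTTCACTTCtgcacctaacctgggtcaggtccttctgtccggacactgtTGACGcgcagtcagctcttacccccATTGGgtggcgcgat
H2-D1: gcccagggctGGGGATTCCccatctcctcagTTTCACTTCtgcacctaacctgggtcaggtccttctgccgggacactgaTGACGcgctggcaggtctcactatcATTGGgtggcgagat

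The H2-K1 and H2-D1 stretches were identical at 108 of 120 bases without gaps. B2m matched H2-K1 at 47 and H2-D1 at 46 of the 120. In both heavy chain genes the IRF-type letters began 21 bases after the NF-kappaB type, TGACG 49 bases after those, and ATTGG a further 25 bases on. The distance of 25 bases from TGACG to ATTGG was also found in B2m, whose remaining sequence differs. Across all 27025 genes with a promoter window (250 bases before to 50 after the start), 27 hold this pair at this spacing on either strand, or 0.0999% of genes. Among the 8 pathway genes with a window, B2m, H2-K1 and H2-D1 hold it. The spacing was looked for after these promoters had been read, and Tap2 is named only.

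**Figure D1:**
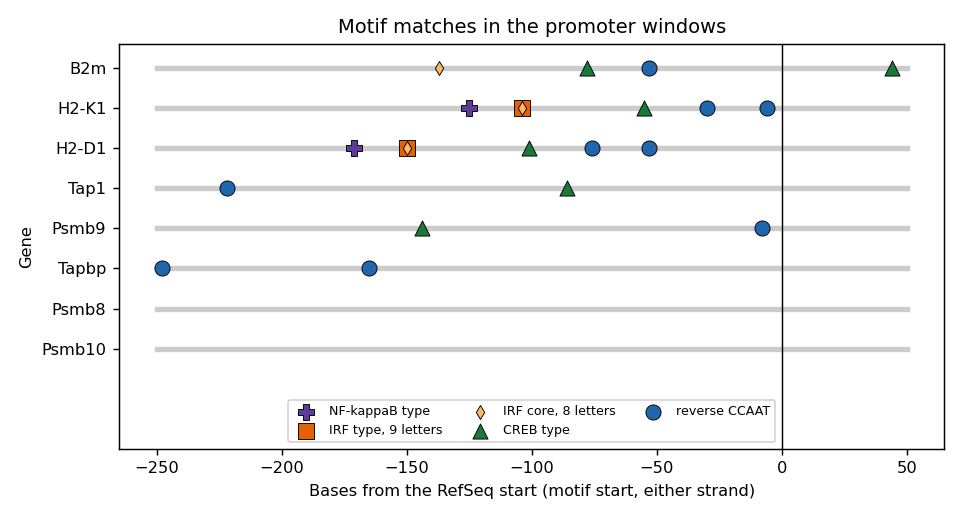
Positions of motif matches on either strand in the promoter window of 8 genes, in bases from the RefSeq start; each symbol is the first base of a match and each grey bar the 300-base window (for H2-K1 the more downstream of its annotated starts). B2m, H2-K1 and H2-D1 carry IRF-type or IRF core letters, TGACG and ATTGG in the same order, with 25 bases between the starts of the last pair.

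B2m showed the largest difference of the 9 genes. B2m codes for beta-2 microglobulin, the invariant light chain shared by the classical class I molecules and most of their relatives. Its probe set 1452428_a_at read 7.87 in the clone with the hairpin and 8.76 in the clone with the vector, on the log2 scale of RMA (robust multi-array average). The log2 difference, shDAB2 minus vector, was -0.89, or 1.85-fold lower. Its other probe set, 1449289_a_at, read 7.91 and 8.50, a log2 difference of -0.60 or 1.51-fold lower. Both probe sets were thus lower in the shDAB2 clone by more than 1.5-fold. Differences among the 500 probe sets of most similar signal had an SD of 0.27 for the brighter and 0.28 for the dimmer B2m probe set.

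B2m stood 26th from the lowest among the 7269 genes above the floor, which is the median of all values (6.62) and had to be reached on at least 1 array. A gene that reached it on 1 array alone could differ in 1 direction only, and 574 of the 7269 genes did so. The genes whose difference lay nearest to that of B2m over these arrays were Cited2 (-0.89), Krt19 (-0.90), Fmr1nb (-0.90), Slc3a2 (-0.87) and Cald1 (-0.87). With 1 array a group, such likeness rests on a single difference per gene.

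**Figure D2:**
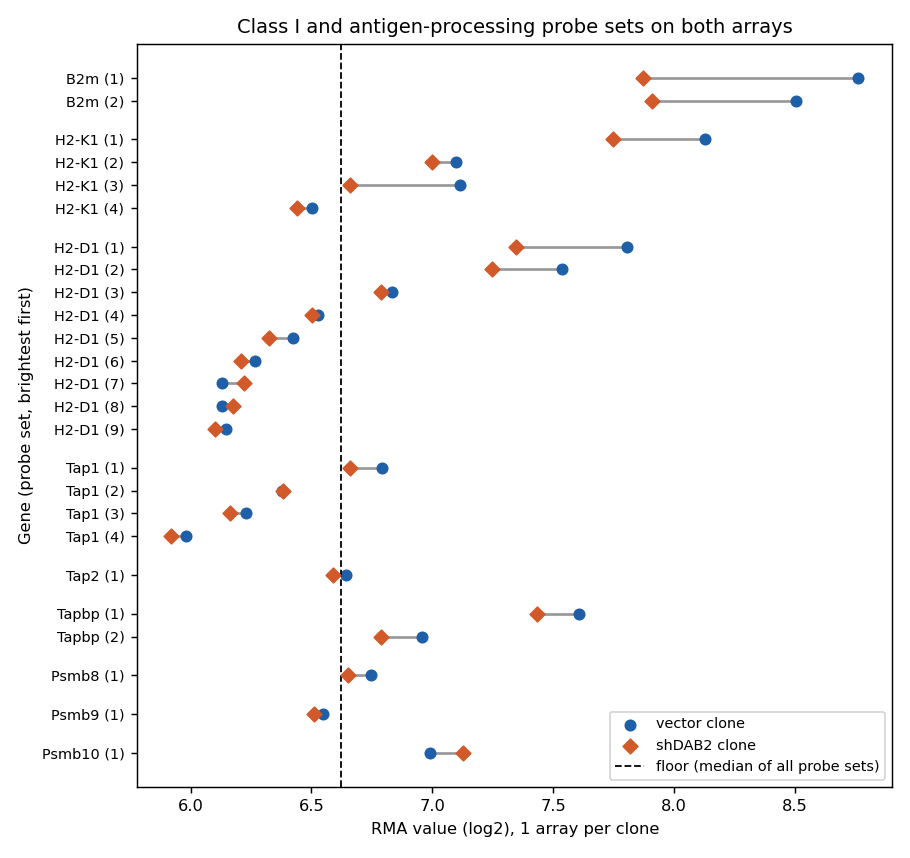
RMA value (log2) of all 25 single-gene probe sets in the vector clone (circles) and the shDAB2 clone (diamonds), brightest probe set of each gene first; the dashed line is the floor of 6.62. The gap is widest for B2m at 0.89, and the Psmb10 pair runs the other way with 7.13 with the hairpin and 6.99 with the vector.

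The classical heavy chain genes were lower in the shDAB2 clone on every probe set above the floor. H2-K1 and H2-D1 encode the chains that bind the peptide. The brightest H2-K1 probe set, 1425336_x_at, read 7.75 with the hairpin and 8.13 with the vector, a log2 difference of -0.38 or 1.30-fold lower. A dimmer H2-K1 probe set, 1427746_x_at, read 6.66 and 7.11, a log2 difference of -0.46. The SD among probe sets of similar signal was 0.25 for the brightest, 0.15 for 1427746_x_at and 0.16 for 1451931_x_at. The H2-K1 probe set 1451931_x_at read 7.001 and 7.10, a log2 difference of only -0.10, so the H2-K1 probe sets did not give 1 common size. The last, 1450534_x_at, lay below the floor and differed by -0.06.

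For H2-D1 the brightest probe set, 1425545_x_at, read 7.35 with the hairpin and 7.80 with the vector, a log2 difference of -0.46 or 1.37-fold lower. The next, 1451784_x_at, read 7.25 and 7.54, a log2 difference of -0.29. The third, 1452544_x_at, read 6.79 and 6.83 and differed by -0.04. In this order, the SD among probe sets of similar signal was 0.22, 0.21 and 0.15. The other 6 H2-D1 probe sets, all below the floor, differed by -0.10 to 0.09, 4 of them lower. Over both genes 6 of 6 probe sets above the floor were lower, with a median log2 difference of -0.33, and 0 of them reached 1.5-fold. Among single-gene probe sets above the floor on the whole array, 50.2% were lower.

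RMA is known to compress differences of dim probe sets. Of the 13 heavy chain probe sets 11 carry the suffix _x_at, by which Affymetrix marks probes that can match other sequences. The H2-D1 probe sets without the suffix, 1426324_at and 1451934_at, lay below the floor and differed by -0.02 and -0.05. All 6 heavy chain probe sets above the floor carry it. The classical class I genes are closely alike in sequence, so a value cannot be given to H2-K1 or H2-D1 alone. The probe set named for both, 1424948_x_at, read 6.49 with the hairpin and 6.68 with the vector, a log2 difference of -0.19, and reached the floor with the vector alone. The other probe sets that name a heavy chain member beside another gene lay below the floor and were higher, 1422348_at by 0.05 and 1451593_at by 0.05.

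Peptide transporter and tapasin genes were lower by small amounts. Tapbp, whose protein tapasin edits the peptide cargo of class I, was the most even: 1421812_at read 7.43 with the hairpin and 7.61 with the vector. Its other probe set, 1450378_at, read 6.79 and 6.96. Both gave a log2 difference of -0.17, inside the SD of 0.22 and slightly outside the SD of 0.15 among probe sets of their own signal. Tap1, a subunit of the transporter, read 6.66 and 6.79 on its only probe set above the floor, a log2 difference of -0.13. Its other 3 probe sets, below the floor, differed by -0.07 to 0.003. Tap2, its partner subunit, read 6.59 with the hairpin and 6.64 with the vector, a log2 difference of -0.06. It reached the floor with the vector alone, so its direction among genes above the floor is fixed by that. The Tap1 and Tap2 differences were within the SD of 0.14 and 0.11 among probe sets of similar signal.

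The inducible proteasome subunits showed no common direction. Psmb8, Psmb9 and Psmb10 replace the constitutive catalytic subunits Psmb5, Psmb6 and Psmb7 and change which peptides are cut. Psmb8 read 6.65 with the hairpin and 6.75 with the vector, a log2 difference of -0.09. Psmb9 lay below the floor at 6.51 and 6.55, a difference of -0.04. Psmb10 was the 1 member with a higher value, at 7.13 with the hairpin and 6.99 with the vector, a log2 difference of 0.14. Each of the 3 differences was smaller than the SD among probe sets of its own signal (0.12, 0.09 and 0.16). The constitutive partners were far above the floor: Psmb5 differed by 0.12, Psmb6 by 0.21 and Psmb7 by -0.07.

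Counted by brightest probe set, 8 of the 9 genes passed the floor, as did 7269 of all 12393 genes. Of these 8, 7 were lower and 1 higher in the shDAB2 clone, where 49.3% of all genes above the floor were lower. H2-K1 and H2-D1 enter this count as separate genes, though their probe sets may read a shared signal. Of the 7 that reached the floor on both arrays, which leaves out Tap2, 6 were lower, where 49.3% of the 6695 genes that did so were lower. The median log2 difference was -0.15 over these 8 genes and 0.00063 over all 7269. B2m alone was at least 1.5-fold lower, against 1.62% of all genes, and 0 members were at least 1.5-fold higher, against 0.578%. H2-D1 and H2-K1 stood 203rd and 314th from the lowest among the 7269 genes on their brightest probe sets. Over the mean of all their probe sets the difference was -0.10 for H2-D1 and -0.25 for H2-K1, and the median of the 7 members then above the floor was -0.10. Without B2m, H2-K1 and H2-D1 the remaining 5 genes had a median of -0.09 with 4 lower, a comparison added after the values were seen. Each of these 5 differed on its brightest probe set by less than the SD among probe sets of similar signal.

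**Figure D3:**
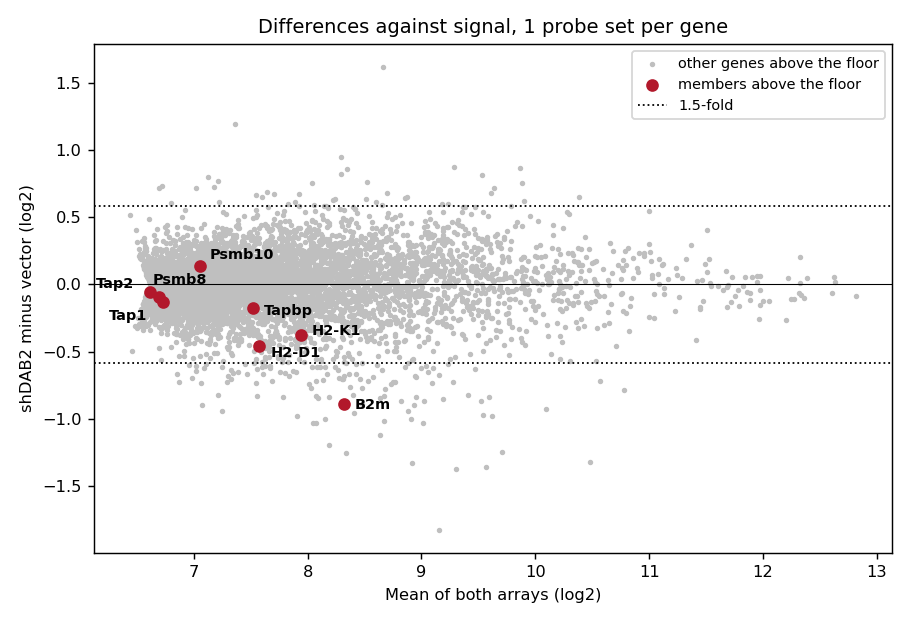
Log2 difference (shDAB2 minus vector) against the mean log2 value of both arrays for the 7269 genes above the floor, with the 8 class I pathway genes above the floor in red; dotted lines mark 1.5-fold. B2m lies below the lower line at -0.89, H2-D1 (-0.46) and H2-K1 (-0.38) lie between it and 0, and the other 5 lie close to 0.

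Genes that lie between the members on chromosome 17 differed in both directions. H2-K1, H2-D1, Tap1, Tap2, Tapbp, Psmb8 and Psmb9 lie in the major histocompatibility complex on chromosome 17, B2m on chromosome 2 and Psmb10 on chromosome 8. Between Tapbp and H2-D1 the array measured 68 other genes, of which 39 passed the floor: 21 were lower, 17 higher and Hspa1b was equal on both arrays. Their median log2 difference was -0.03, with a range from -0.50 for Clic1, a chloride channel family gene, to 0.35 for Slc39a7, a zinc transporter. The 5 members there that reached the floor on both arrays were lower, by -0.46 to -0.09. Of the 35 other genes that did so, 19 were lower and 15 higher. Clic1 and its neighbour Ddah2 (-0.39) were thus as low as the heavy chain genes. Next to H2-K1, Ring1 differed by -0.07 and Vps52 by -0.08, and next to H2-D1, Ddx39b differed by -0.28. Around Tapbp, Rgl2 differed by 0.04 and Zbtb22 by 0.005, and Daxx and Wdr46 were higher by 0.48 and 0.28. The nearest measured neighbours of B2m, Mageb3 (0.17) and Trim69 (-0.02), were below the floor. Near Psmb10, Edc4 was higher by 0.18 and Slc12a4 differed by -0.28.

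**Figure D4:**
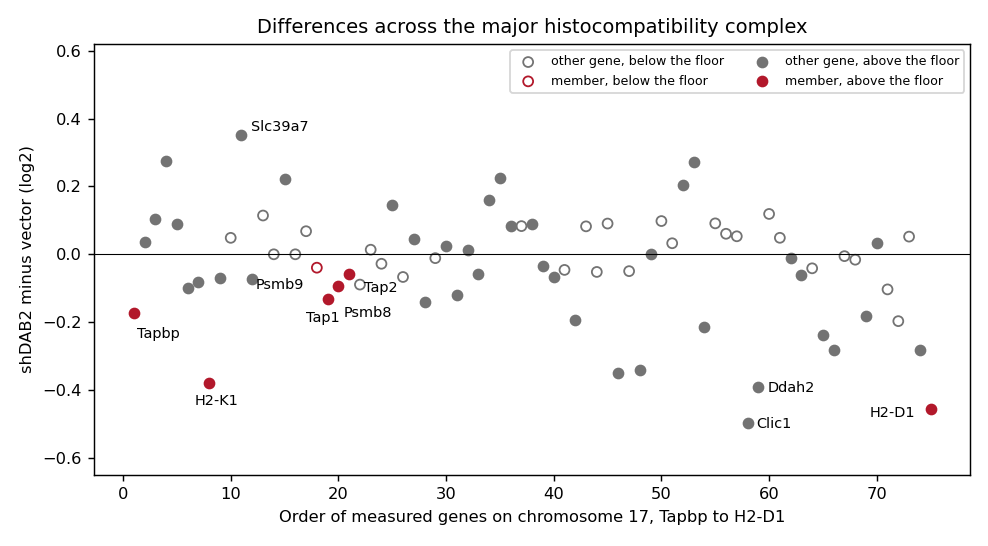
Log2 difference (shDAB2 minus vector) of the measured genes on chromosome 17 in their RefSeq order from Tapbp to H2-D1, with class I pathway genes in red and genes below the floor as open circles. H2-K1 (-0.38) and H2-D1 (-0.46) lie low among neighbours of both signs, and Clic1 (-0.50) lies lower still.

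Tap1 and Psmb9 start back to back from 1 intergenic stretch and their promoter windows share 275 bases. The pair differed by -0.13 and -0.04, with Psmb9 below the floor. Of the promoter letters searched on both strands, GAANNGAAA (IRF type) and GGGNNTTCC (NF-kappaB type) were found in H2-K1 and H2-D1 only among the 8 genes, against 8.68% and 6.58% of all genes. This holds for the patterns as written: the B2m window reads GAAACTGAAA and GGGAAAGTCCC, which they do not match. TGACG was found in 5 of the 8 genes (B2m, H2-K1, H2-D1, Tap1 and Psmb9) and in 23.05% of all genes. ATTGG was found in the same genes and Tapbp, 6 of 8, and in 41.1% of all. The shorter IRF core AANNGAAA, which overlaps the IRF-type letters and was added after the promoters had been read, was found in B2m, H2-K1 and H2-D1 and in 26.7% of all genes. A match is a run of letters and not a shown binding site.

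Other genes with TGACG and ATTGG at 25 bases went both ways. Besides B2m, H2-K1 and H2-D1, 24 genes hold this pair, and 15 of them passed the floor. Of these 8 were lower, 6 higher and Ubn1 equal, with log2 differences from -0.31 for Glyr1 to 0.36 for Hspa14 and a median of -0.005. H2-M3, a nonclassical class I gene that holds the pair, lay below the floor at 6.54 and 6.52. Either strand was searched, so genes whose windows overlap can share the same run of letters, and this was not checked. The genes of this paragraph were named after their values were seen.

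The other heavy chain genes were near the lower end of the array. Of 14 measured, Fcgrt, the neonatal Fc receptor (0.14), and Mr1, which presents vitamin metabolites (0.04), passed the floor. Fcgrt reached it in the shDAB2 clone alone, so its higher value is fixed by the filter. Both proteins pair with B2m. The other 12 differed by -0.15 to 0.11, among them H2-Bl at -0.15, H2-Q5 at -0.08, H2-T3 at -0.06 and Cd1d1 at 0.11. All H2-Q, H2-T and H2-M genes with a single-gene probe set lay below the floor.

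Chaperones and enzymes that serve class I in the endoplasmic reticulum and cytosol went apart. Of 16 measured genes of peptide supply and loading, 13 passed the floor, with 8 higher, 5 lower and a median log2 difference of 0.07. Calr, the chaperone calreticulin, read 9.81 with the hairpin and 9.27 with the vector, a log2 difference of 0.54 (0.31 on its next probe set). Pdia3, the disulphide isomerase of the peptide-loading complex, read 10.07 and 9.60, a difference of 0.46. These partners of tapasin were thus higher while B2m and the heavy chain genes were lower. The SD among probe sets of similar signal was 0.30 for Calr and 0.28 for Pdia3. Canx, calnexin, which receives the new heavy chain, differed by -0.01. Nrd1, a protease gene, differed by -0.43 but by 0.04 on its next probe set, and Bcap31, an export factor, by -0.22. Erap1, which trims peptides, and Tapbpl, a tapasin relative, lay below the floor at -0.01 and -0.02.

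The proteasome activator gene Psme1 stood lowest among the constitutive subunits and activators. It encodes the alpha subunit of the PA28 cap, which favours release of class I peptides, and read 8.44 with the hairpin and 8.84 with the vector, a log2 difference of -0.40. All 7 measured genes of this list passed the floor, 4 higher and 3 lower, with a median of 0.05. Pomp, the assembly factor, was higher by 0.18, and Psme3 of another cap differed by -0.07.

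Regulators known to act on class I promoters showed small differences. Of 23 measured, 16 passed the floor, 9 lower and 7 higher, with a median log2 difference of -0.003. In the NF-kappaB family, Relb differed by -0.25 (above the floor with the vector alone), Nfkb2 by -0.21 (0.02 on its next probe set) and Rela by -0.06. The NF-Y subunits, which bind the CCAAT box, went apart with Nfyc at 0.23, Nfyb at 0.21 and Nfya at -0.15. The RFX subunit Rfxap differed by 0.18, Rfx5 by 0.04 and Rfxank by -0.09 (0.07 on its next probe set). Irf1, the factor that carries interferon signals to these promoters, read 7.67 with the hairpin and 7.71 with the vector, a difference of -0.04. Irf3 differed by -0.20. The Polycomb genes Ezh2, Eed and Suz12 differed by -0.004, 0.03 and 0.01. Nlrc5, the class I transactivator, was not analysed here.

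Interferon signalling and interferon-stimulated genes went both ways. Of 11 receptor and signalling genes 9 passed the floor, 5 higher and 4 lower, with a median log2 difference of 0.03. The kinase gene Jak1 differed by -0.20 (-0.21 on its next probe set). The feedback gene Socs3 differed by 0.11 (-0.04 on its next probe set). Of 24 interferon-stimulated genes 8 passed the floor, 5 higher and 3 lower, with a median of 0.05. Bst2, a surface protein that tethers virus particles, differed by -0.58, Gbp2, a guanylate-binding protein, by -0.38 (-0.33 on its next probe set), Ifitm2 by 0.38 and Ifitm3 by 0.76. The other 16 lay below the floor at -0.13 to 0.14, Ifit1 (0.02), Mx1 (0.01) and Rsad2 (-0.01) among them.

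Class II genes were mostly below the floor. Of 11 measured in the list, 2 passed it: Lgmn, a lysosomal protease, at a log2 difference of -0.38, and Ifi30, a thiol reductase, at 0.16. H2-Ea, a class II chain gene outside the list, read 6.91 with the hairpin and 6.77 with the vector, a difference of 0.15. H2-Aa, H2-Ab1, H2-Eb1, Cd74 and Ciita lay below the floor, with differences of -0.09 to 0.01.

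**Figure D5:**
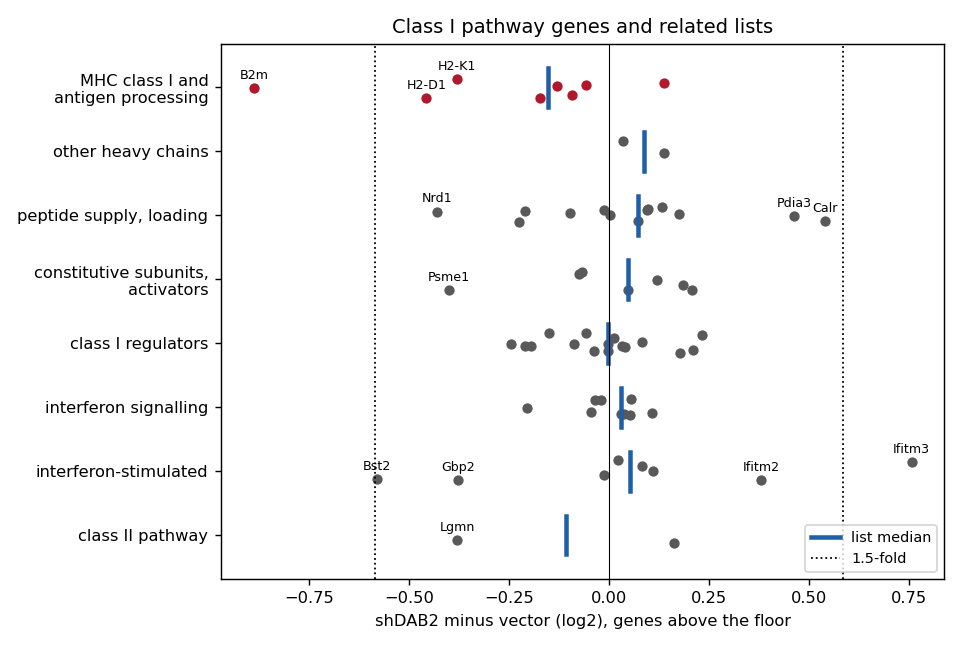
Log2 difference (shDAB2 minus vector) of each gene above the floor in the class I pathway (red) and in related gene lists (grey), with list medians as blue bars and 1.5-fold as dotted lines; vertical scatter within a list has no meaning. The class I pathway median is -0.15, while the peptide supply list has a median of 0.07 with Calr at 0.54.

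The labelled cell type was checked against its markers. All 11 measured stem cell markers passed the floor on these arrays, where 7269 of 12393 genes did. Of the 11 markers, 7 were higher and 4 lower. The higher ones included Pou5f1 at a log2 difference of 0.10, Zfp42 at 0.17, Klf4 at 0.26, Utf1 at 0.21 and Fgf4 at 0.61. The lower ones were Esrrb at -0.24, Sox2 at -0.17, Dppa5a at -0.08 and Nanog at -0.02. Fibroblasts and leukocytes are rich in class I, so their markers were read as well. Of 12 fibroblast markers 3 passed the floor: Tagln (-0.98), Acta2 (-0.13) and Dcn (0.07). On its next probe set Acta2 differed by 0.02. Col1a1, Col1a2, Col3a1 and Thy1 lay below the floor. The summed fibroblast level on the linear scale was 1727 with the hairpin and 2313 with the vector. Tagln alone gave 559 and 1103 of it, and the other 11 markers, 9 of them below the floor, gave 1169 and 1210. Dcn reached the floor with the hairpin alone. Of 10 leukocyte markers 2 passed it, Laptm5 (-0.21) and Coro1a (-0.10), while Ptprc, Cd3e and Csf1r lay below. Their summed level was 888 and 893. The part of such cells in the class I values was not tested, and in bulk RNA fewer cells of a type and less RNA per cell cannot be told apart. Dab2, the target of the hairpin, read 6.33 with the hairpin and 6.64 with the vector on its brightest probe set, a log2 difference of -0.31, with the floor reached by the vector clone alone. Its other probe sets lay below the floor and differed by -0.05 and -0.01.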

How the data were processed

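Each probe set has 1 deposited log2 value on each array, which the authors made with RMA per the submitters' processing notes. Its version, and whether other arrays entered the normalization, are not stated in the labels. The log base was inferred from the values (5.65 to 12.86). RMA equalises the arrays and compresses dim differences. Of 22626 probe sets, 20380 name 1 gene, 691 several and 1555 are unnamed here. Gene IDs of 20351 matched RefSeq (GRCm38.p6), which changed 0 symbols and gave chromosomes, gene order and promoter windows.

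The measure is the log2 difference, hairpin clone minus vector clone. The number of arrays limits the precision. A gene takes its probe set with the highest mean, and counts as above the floor when either array reaches 6.62, the median of all values. Over 2502 genes for which 2 probe sets passed the floor, the SD of 1 probe set's difference was 0.11. This covers probes and transcript variants only. The arithmetic was checked on simulated data with planted differences larger than that of any member. That check says nothing about the spread between cultures.

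The 9 genes, the 10 other gene lists and the settings were chosen with earlier results of these data known. Named genes are the 9, up to 4 genes above the floor with the largest difference from each list, the H2-Q, H2-T and H2-M genes above the floor (none passed), Nlrc5, Irf1, Psmb5, Psmb6, Psmb7, Dab2, the 5 genes nearest to B2m and chromosomal neighbours. Other genes were named after their values were seen. Alternatives used limma 3.58.1 in R 4.3.3 (cyclic loess), median centring, the mean of a gene's probe sets, fewer probe sets, other floors and other fold limits.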

Additional observations from a re-analysis of the deposited data

How the results depend on the processing

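With 1 array per clone, neither a spread between cultures nor a test can be had, and values near the floor carry compressed differences. No paired analysis was possible because each clone has 1 array. Centring on the array median and cyclic loess left 7 of 8 genes lower and 1 at least 1.5-fold lower, with medians of -0.15 for both. The B2m difference ran from -0.92 (cyclic loess) to -0.74 (mean of its probe sets). That mean also gave -0.25 for H2-K1 and -0.10 for H2-D1, with 6 of 7 genes lower and a median of -0.10; the other 42 values of single genes moved by less than 0.11. Leaving out probe sets ending in _s_at, _x_at or _a_at removed every B2m, H2-K1, Tap2 and Psmb8 probe set. It left no H2-D1 probe set above the floor. In this setting 2 of 3 genes were lower and 0 at least 1.5-fold lower. With the floor at the 75th percentile (7.33), 4 of 4 genes were lower with a median of -0.42. With no floor, 8 of 9 were lower with a median of -0.13. With the floor reached on both arrays, a setting added later, 6 of 7 were lower with a median of -0.17. By construction a 2-fold limit left 0 genes lower and a 1.2-fold limit 3. Without B2m, H2-K1 and H2-D1, 4 of 5 were lower. Among the other lists, 61 of 67 medians moved by less than 0.11. The fibroblast median was -0.45 without the named suffixes and -0.56 with the higher floor or the floor reached on both arrays, over 2 genes each. The class II median was 0 with no floor and 0.16 with the higher floor, where 1 gene was left, and the leukocyte median was 0.048 with no floor. The cause was not tested beyond the smaller or larger number of genes.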
